A study of Mus musculus with 36 samples.

Results

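The chemokine and chemokine receptor genes of mouse liver were examined for H3K9me3, the trimethylation of lysine 9 on histone H3, a mark of repressed chromatin. Members were the genes on autosomes whose symbol in the deposited tables begins with Ccl, Cxcl, Ccr or Cxcr followed by a digit. They were the nearest gene of 1066 of the 786789 bins listed in 6 tables, of which 765166 bins lay on autosomes. These 1066 bins named 43 genes among 21394 autosomal gene symbols, and RefSeq lists 52 protein-coding members on the autosomes, of which 42 had a bin. The remaining gene with a bin was Cxcl11, which RefSeq records as a transcribed pseudogene.

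Chromatin of whole liver was immunoprecipitated and sequenced (ChIP-seq) in 32 libraries, in 8 groups of 4 mice, beside 4 input libraries that were not analysed here. The groups were control or MO offspring, female or male, at 3 or 8 weeks of age. MO stands for maternal obesity: the dams had eaten a Western-style diet from before mating through pregnancy and lactation, whereas control dams had eaten chow. All offspring, in both arms, carried a floxed Reg3g allele (Reg3g-fl/+ or Reg3g-fl/fl) on a C57BL/6J background, and the sires were wild type. Mice of 3 weeks were taken before weaning, and mice of 8 weeks had eaten chow since weaning in both arms. In each sex 1 table covered control mice of both ages (the age table). Another covered MO and control mice at 3 weeks, and 1 more covered MO and control mice at 8 weeks. The tables of a sex thus share control libraries, and their peaks come from a set merged over the groups of that sex. Listing in several tables of a sex is therefore not independent repetition. A table gives, for 1 bin of up to 501 bases in each listed peak, the authors' mean level over the libraries of both groups as log2 CPM (counts scaled to the size of the library). No value of a single library or group was used, so no spread between mice can stand beside a level, no group was tested against another, and what follows describes where peaks were listed. A level in log2 CPM holds for its own table, and between tables the percentile among the autosomal bins of the same table is set side by side. In whole tissue, fewer cells of a type that carries the mark and less of the mark in each cell cannot be told apart.

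Chemokines are small secreted proteins that guide leukocytes along gradients. CC and CXC ligands are named for the spacing of their first cysteines, and they act through G protein-coupled receptors of the Ccr and Cxcr families, with much sharing of ligands between receptors. Homeostatic ligands such as Cxcl12 and Cxcl13 position cells in resting tissue, and inflammatory ligands such as Cxcl1 and Ccl2 are switched on through NF-kB and interferon signals. In liver, Kupffer cells, endothelial cells and hepatocytes release such ligands during injury, and the receptors are carried mainly by immune cells. H3K9me3 is best known at repeats and in constitutive heterochromatin, and it also marks some silent genes.

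Among the genes with a peak at their start in every table were Cxcl1, Cxcl2 and Cxcl3, neighbours on chromosome 5 that encode ligands of the neutrophil receptor Cxcr2. The 200 bases before each start are printed because the peaks cover them in part or in full. Cxcl10, an interferon-induced ligand of Cxcr3 whose start lay in no listed peak, is printed beside them because it holds the same kind of motif. Sequences are from RefSeq on GRCm38.p6 and are written 5′ to 3′ on the strand of the gene. They are chr5:90891045-90891244 on the plus strand for Cxcl1, chr5:90903699-90903898 on the plus strand for Cxcl2, chr5:90785901-90786100 on the plus strand for Cxcl3 and chr5:92348890-92349089 on the minus strand for Cxcl10. All 4 lie just outside the transcribed part of their gene. Capitals mark matches to an NF-kB-like motif of 10 bases, GGGA and TTCC with any 2 bases between them, searched on both strands, and overlapping matches on both strands were joined.
Cxcl1: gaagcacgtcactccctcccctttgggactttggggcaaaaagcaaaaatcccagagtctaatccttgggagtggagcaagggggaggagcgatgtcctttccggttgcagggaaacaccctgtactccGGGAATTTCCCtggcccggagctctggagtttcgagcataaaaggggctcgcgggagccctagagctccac
Cxcl2: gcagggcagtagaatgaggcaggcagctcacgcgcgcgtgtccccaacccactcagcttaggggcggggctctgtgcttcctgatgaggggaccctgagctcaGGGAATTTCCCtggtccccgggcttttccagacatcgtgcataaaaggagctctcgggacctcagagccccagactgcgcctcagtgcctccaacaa
Cxcl3: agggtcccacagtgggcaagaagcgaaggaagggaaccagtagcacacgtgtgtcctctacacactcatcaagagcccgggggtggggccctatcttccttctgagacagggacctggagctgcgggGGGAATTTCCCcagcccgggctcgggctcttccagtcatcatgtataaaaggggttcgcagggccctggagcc
Cxcl10: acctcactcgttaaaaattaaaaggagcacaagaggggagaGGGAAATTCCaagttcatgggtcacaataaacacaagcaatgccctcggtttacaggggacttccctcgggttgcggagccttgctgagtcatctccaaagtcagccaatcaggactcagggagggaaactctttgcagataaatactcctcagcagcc

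The capitals of Cxcl1, Cxcl2 and Cxcl3 are the same run, GGGAATTTCCC, whose first base lies 71, 97 and 73 bases before the start. The motif was present in the RefSeq promoter window, 250 bases before to 50 after the start, of 6 of the 38 members with an entry (15.8%), beside 1.42% of all promoters in the same windows. The 6 were Cxcl1, Cxcl2 and Cxcl3, with a peak at the start in every table, and Cxcl10, Ccl1 and Ccr3, with none. A match is a description of the letters and says nothing of binding.

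A start was counted when any curated RefSeq mRNA start of the gene lay inside a listed peak, whatever gene the authors had assigned the peak to. Such a start was present in 15 of the 52 coding members in the female age table, in 16 at 3 weeks and in 14 at 8 weeks. For males the counts were 17, 18 and 14 in the same order. The share of members was 26.9 to 34.6% over the 6 tables, and it was 51.8 to 57.4% over 20021 coding genes, so starts of members were held by peaks less often than those of all coding genes in each table. Over all tables, 20 members (38.5%) had their start in a peak at least once, beside 64.1% of coding genes. In all 6 tables the counts were 8 members (15.4%) beside 42.8% of coding genes. Peaks over the gene body, taken as the span of the curated mRNAs, were listed for 36.5 to 53.8% of members and 77.9 to 81.4% of coding genes. In 24 members (46.2%) no peak lay over the body in any table, beside 15.9% of coding genes. A longer body has more room for a peak, many members are short genes, and gene length was not matched. The body shares therefore cannot be told apart from an effect of length.

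**Figure D1:**
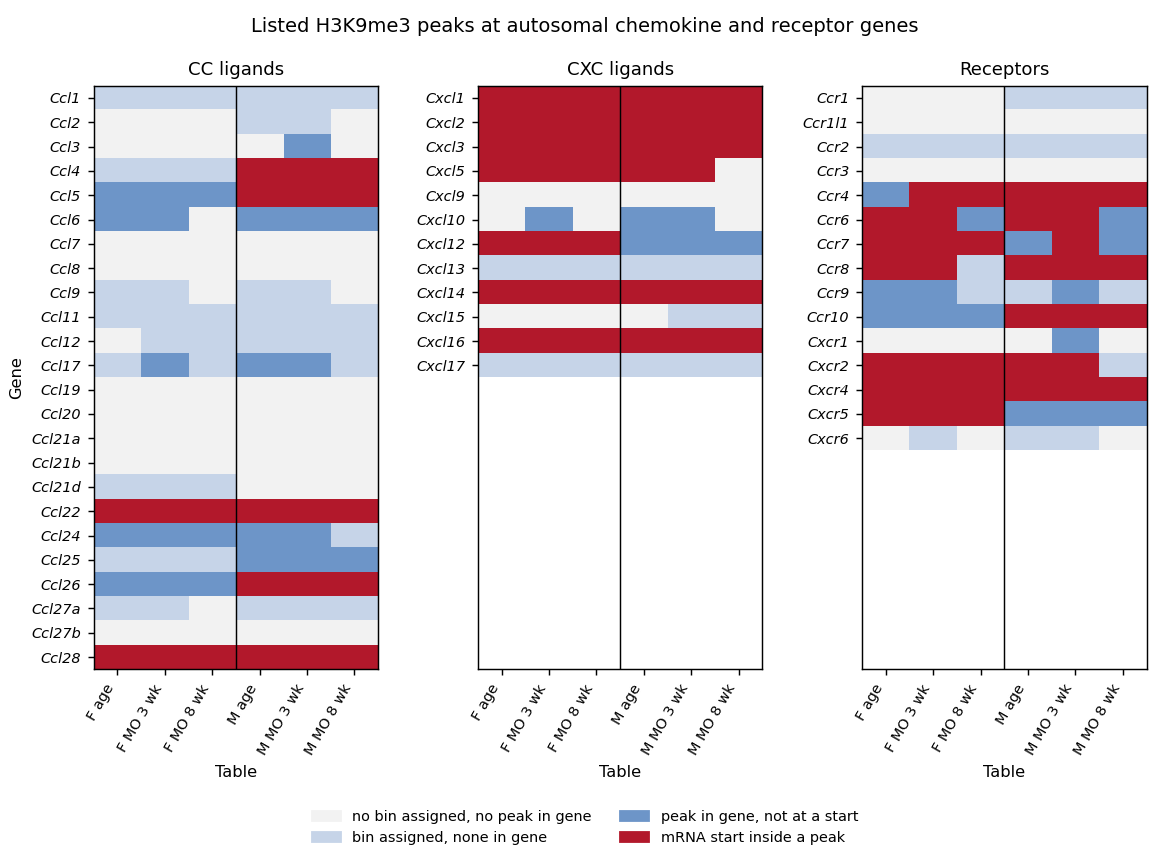
Each row is a coding member (1 of the 52 is not drawn) and each column a table (F female, M male, the black line parts the sexes), and the colour gives whether a listed peak held an mRNA start, lay in the gene only, or was only assigned to the gene. Starts in a peak in all 6 tables are seen for 8 of the 52 genes, and 10 genes had no bin in any table.

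By role, starts in a peak were more frequent among the CXC names than the CC names. Of 12 coding CXC ligands, 7 had the start in a peak in some table and 5 in all tables, namely Cxcl1, Cxcl2, Cxcl3, Cxcl14 and Cxcl16. Of 24 CC ligands, 5 had it in some table and 2 in all tables, Ccl22 and Ccl28. Of 11 CC receptors, 5 had it in some table and 0 in all tables. Of 5 CXC receptors, 3 had it in some table, and Cxcr4 alone in all tables. By use, 5 of 14 homeostatic ligands and 7 of 18 inflammatory ligands had a start in a peak in some table, so this division did not part the members as the CXC and CC names did. These are small counts and were not tested.

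Members with their start in a peak were not spread evenly over the gene clusters. Clusters were formed from members whose neighbours lay within 1 Mb, which put 37 genes into 9 clusters. In the cluster from Cxcl5 to Cxcl2 on chromosome 5 (chr5:90759298-90905938), 4 of 5 genes had the start in a peak, and the exception was Cxcl15. In contrast, 4 of the 9 clusters, with 21 genes, had no start in a peak in any table. The smallest was the pair of Cxcl9 and Cxcl10 on chromosome 5, whose span still held 1 to 3 peaks per table (3.63 to 10.9 per 100 kb). The first of the larger ones, on chromosome 4, spans 1005 kb from Ccl27a to Ccl21a and holds 6 genes, among them Ccl19 and Ccl21a, the ligands that draw T cells and dendritic cells into lymph nodes. The second, on chromosome 9, begins at Ccr9 and holds 7 receptor genes, among them Ccr2, the receptor of inflammatory monocytes. The third, on chromosome 11, spans 144 kb from Ccl2 to Ccl1 and holds 6 ligand genes, among them Ccl2, Ccl7 and Ccl12, which act on Ccr2. Between 1 and 3 peaks per table lay anywhere in the span on chromosome 4 (0.0995 to 0.299 per 100 kb), 4 to 7 in the receptor cluster on chromosome 9 (1.11 to 1.94 per 100 kb) and 3 to 5 in the Ccl2 to Ccl1 span (2.08 to 3.47 per 100 kb). The autosomes as a whole held 4.12 to 6.45 peaks per 100 kb, and the Cxcl5 to Cxcl2 span held 4.09 to 5.46. Other clusters were denser or varied more: Ccl26 to Ccl24 held 15.8 to 31.6 peaks per 100 kb, Ccl22 to Ccl17 held 10.5 to 22.6, Ccl5 to Ccl4 held 2.16 to 5.76 and Cxcr2 to Cxcr1 held 0 to 9.82. The Ccl27a to Ccl21a region contains near-identical gene copies (Ccl21a, Ccl21b and Ccl27b among them), where reads that fit several places may be lost, and mappability there was not tested. Of the 15 members with no other member within 1 Mb, 11 had the start in a peak (73.3%). That share was 80% in the Cxcl5 to Cxcl2 cluster and 64.1% over coding genes. The spread over clusters was not tested.

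In the Cxcl5 to Cxcl2 cluster, the peaks of Cxcl1 and Cxcl2 were short and lay on both sides of the start. At Cxcl1 the peak ran from 103 bases before to 261 after the start in the female tables and from 300 before to 361 after in the male tables. Its bin, which held the start in all 6 tables, had a mean level of 2.91 log2 CPM in the female age table, 2.75 at 3 weeks and 2.72 at 8 weeks, and of 2.34, 2.13 and 2.93 in the male tables in the same order. These levels stood between the percentiles 61.5 and 88.8 of their tables, so the Cxcl1 bin lay in the upper part of every table. The Cxcl2 peak ran from 206 before to 430 after in females and from 240 before to 384 after in males. The Cxcl2 bin had mean levels of 2.96, 2.63 and 2.74 log2 CPM in the female tables and of 2.62, 2.33 and 2.84 in the male tables (percentiles 62.1 to 91.2). Cxcl1 and Cxcl2 thus had a listed peak over the start, with a bin in the upper part of each table, in both sexes.

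At Cxcl3 the female peak was longer upstream, from 961 before to 477 after the start, than the male peak, from 254 before to 450 after. The listed Cxcl3 bins had levels of 2.31, 2.24 and 2.69 log2 CPM in the female tables, at percentiles 4.68, 22.8 and 58.8. In the male tables they had 2.74, 2.42 and 3.14, at percentiles 94.7, 88.8 and 85.0. The male percentiles lay above the female ones without overlap, but the female age and 3-week tables list a bin past the Cxcl3 start, whereas the other 4 list the bin that holds it, so these values are not from the same bases. At Cxcl5, another Cxcr2 ligand, the female percentiles were the higher ones. The Cxcl5 peak ran from 147 before to 436 after the start in females, with levels of 3.36, 2.97 and 3.10 log2 CPM and percentiles of 97.6, 96.7 and 89.4. In males it ran from 1282 before to 425 after, with levels of 2.08 (percentile 46.9) in the age table and 1.89 (percentile 28.8) at 3 weeks, and it was not listed at 8 weeks. The male 3-week bin ended 782 bases before the start, whereas the bins of the other tables held the start, so that value too is from other bases. Cxcl15, which lies between Cxcl3 and Cxcl1, had 2 bins in all, both in male tables and 27.7 kb from its start.

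**Figure D2:**
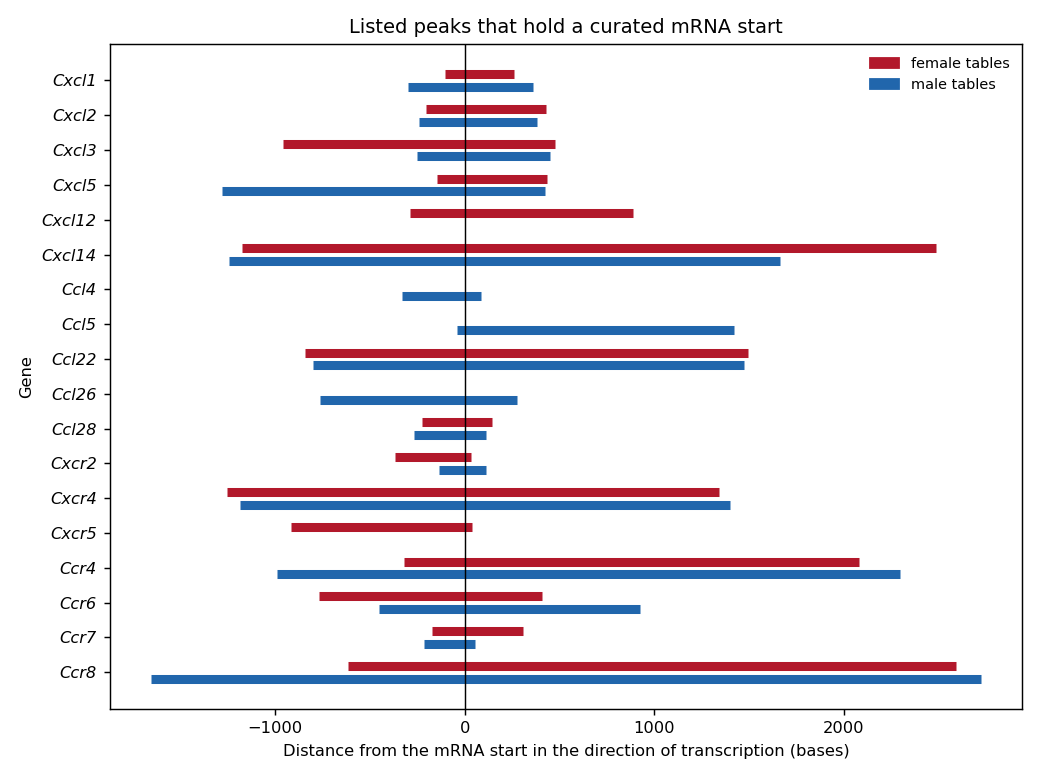
Horizontal bars show the span of listed peaks around the mRNA start of 18 genes, in bases along the direction of transcription, with female tables in red and male tables in blue, and a missing bar means that no table of that sex listed a peak over the start. Cxcl16 and Ccr10, whose peaks reach more than 5 kb upstream, are not drawn. Cxcl1, Cxcl2, Ccl28, Cxcr2 and Ccr7 have short peaks over the start, and Ccl4, Ccl5 and Ccl26 have bars for males only.

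Among the other ligands with a peak at the start in all 6 tables, Ccl28, an epithelial ligand of Ccr10, had a peak of 371 to 377 bases, all of it within 265 bases before and 145 after the start. The Ccl28 bin held the start in each table and had levels of 2.92, 2.90 and 2.79 log2 CPM in the female tables and 2.35, 2.20 and 3.02 in the male tables. Its percentiles were 68.9 to 95, the narrowest range of the 8 genes. Ccl22, a ligand of Ccr4 made by macrophages and dendritic cells, had a peak of 2275 to 2341 bases and percentiles of 19.4 to 89.2, and Ccl17, its neighbour and also a Ccr4 ligand, had no start in a peak. Cxcl14 had a peak of 2911 to 3661 bases, and its listed bins stood at percentiles of 13.0 to 59.0. Cxcl16, the membrane-bound ligand of Cxcr6, had its start at the end of a peak of 6332 to 6835 bases, and in 5 of 6 tables the authors assigned the listed bin of that peak to the neighbouring gene Zmynd15. The start of Cxcr4, the receptor of Cxcl12, lay in a peak of 2584 to 2596 bases whose listed bins ranged from percentile 0.576 in the male 8-week table to 91.5 in the female age table. A wide range in a long peak is read with caution, because each table lists 1 bin of the peak and not the same bin in each: 46 of the 94 listed bins in peaks over member starts held the start itself.

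**Figure D3:**
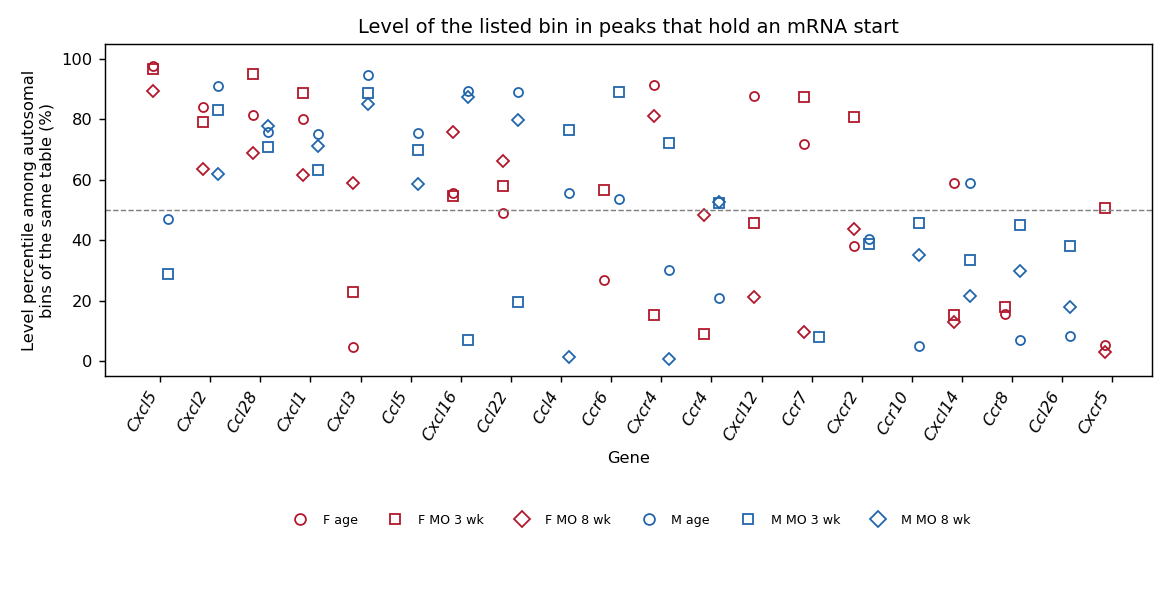
Each point is the level of the listed bin in a peak that holds an mRNA start, as a percentile among the autosomal bins of its table, with female tables in red and male tables in blue and 1 symbol shape per kind of table. Genes are ordered by their median. Cxcl1, Cxcl2 and Ccl28 stay at or above percentile 61.5 in every table, and the female points of Cxcl5 lie above its 2 male points, of which 1 is from a bin upstream of the start.

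Several members had the start in a peak in tables of 1 sex only. Ccl4 and Ccl5, inflammatory ligands that lie at either end of the same cluster on chromosome 11, had it in the 3 male tables and in no female table. The Ccl4 peak was 417 bases long, from 332 before to 84 after the start, with levels of 2.15, 2.26 and 2.27 log2 CPM, and these stood at percentiles 55.6, 76.6 and 1.20 of the male age, 3-week and 8-week tables. The Ccl5 peak began 39 bases before the start and ran to 1420 after it, and its listed bin, which began 920 bases past the start, stood at percentiles of 58.6 to 75.5. In female tables Ccl5 had a peak in the body and not at the start, and the bin assigned to Ccl4 was intergenic, 4.49 kb from the start. The starts of Ccl26 and Ccr10 also lay in a peak in male tables only, but 1 of the 3 listed Ccl26 bins and 0 of the 3 listed Ccr10 bins held the start, so no level at these starts is given. The start of Cxcl12, the ligand that holds blood stem cells and lymphocytes in their niches, lay in a peak in the 3 female tables (listed bins at percentiles 21.2 to 87.6, 1 of 3 holding the start) and in no male table. In the 3 male tables the Cxcl12 peak began 25 bases past the start and ran to 1006 after it, so the female and male peaks overlapped and differed in their upstream edge. Its listed bin reached 3.48 log2 CPM in the male 8-week table. Cxcr5, the receptor that brings B cells to Cxcl13, had its start in a peak in females only, with listed bins at percentiles 5.12, 50.6 and 2.89, of which the second did not hold the start.

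Together, 14 members had a start in a peak in both sexes (26.9%), 2 in females only (3.85%) and 4 in males only (7.69%). Over all coding genes the shares were 48.8%, 5.87% and 9.36%. As shares of all genes, starts seen in 1 sex were thus somewhat less frequent among members. Fewer members had any start in a peak (38.5% beside 64.1%), so this order need not hold among genes with such a start, and it was not tested. The peak sets were merged separately for each sex, and whether a peak is missing from the other sex because of a lower level or because of its caller's threshold was not tested.

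With age, fewer member starts were listed at 8 than at 3 weeks in the MO tables of both sexes. In females 2 of 16 starts listed at 3 weeks were not listed at 8 weeks (12.5%), those of Ccr6 and Ccr8. In males 4 of 18 were not listed at 8 weeks (22.2%), those of Ccr6, Ccr7, Cxcr2 and Cxcl5. For coding genes the shares were 4.08% in females and 4.75% in males, and of the starts listed at 8 weeks, 5.15% (females) and 3.24% (males) over coding genes and 0 of 14 in members of either sex had not been listed at 3 weeks. Ccr6, which answers to Ccl20, was the gene in both lists. The listed bin of the peak over its start stood at percentile 56.6 in the female 3-week table, where it did not hold the start, and at 89.2 in the male one, where it did, and in the 8-week tables a peak remained in its body only. At Ccr7, the receptor of Ccl19 and Ccl21, the level in the female tables was 2.82 (age), 2.73 (3 weeks) and 2.31 log2 CPM (8 weeks), at percentiles 71.9, 87.5 and 9.75, and in males it was listed at the start at 3 weeks alone, at percentile 7.84. Cxcr2, the neutrophil receptor for Cxcl1, Cxcl2, Cxcl3 and Cxcl5, had a short peak of 253 to 399 bases at the start in 5 tables, at percentiles of 38 to 80.7, and was missing in the male 8-week table.

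All member bins showed the same order by age. Bins of members numbered 197 at 3 weeks and 146 at 8 weeks in females, and 237 and 122 in males, so the 8-week count was 74.1% and 51.5% of the 3-week count. For all autosomal bins it was 82.0% and 63.8%. Of member peaks at 3 weeks, 62.4% in females and 48.9% in males overlapped a peak at 8 weeks by at least 1 base, beside 72.2% and 60.6% of all peaks. In the other direction 85.6% and 95.1% of member peaks at 8 weeks overlapped one at 3 weeks, beside 88.1% and 94.9%. The 8-week lists were thus mostly contained in the 3-week lists. Both ages of a sex draw on a set of peaks merged over its groups, so overlapping peaks share their bounds by design. Containment near that of all peaks is therefore not read as a result about members. Why a peak of that set is missing from an 8-week list was not tested. The ages differ in diet before sampling and in table size, and these cannot be told apart from age.

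Promoters of members were poor in CpG. RefSeq promoter windows were at hand for 38 of the 52 members. Their median was 4 CpG dinucleotides in 300 bases, beside 14 over 16010 promoters, and 24 members (63.2%) had at most 5, beside 30.5% of promoters. Of those 24 members, 4 had that start in a peak in some table (16.7%), beside 23.0% of all genes with at most 5 CpG. Of the 14 members with more, 8 had it in a peak, and the share over all such genes was 77.8%. The median was 10 CpG in the 12 members with that start in a peak and 3 in the 26 without, beside 21 and 4 over all genes. CpG count and listing of the start thus went together in members as in all genes. Within the class of 3 to 5 CpG the gap was still present, with 2 of 14 members beside 36.7% of genes. In the class of 0 to 2 it was not, with 2 of 10 members beside 13.1%.

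**Figure D4:**
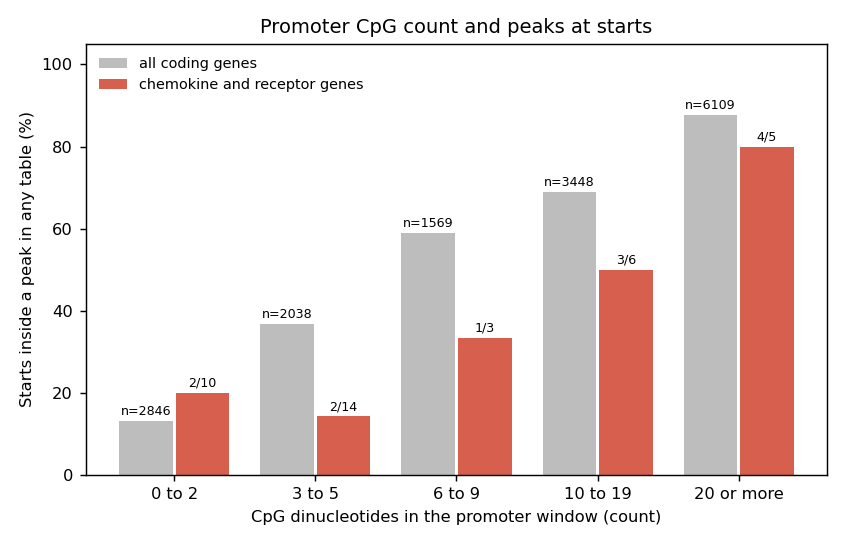
Bars give the share of genes with the RefSeq promoter start inside a listed peak in any table (vertical axis, from 0%) by the count of CpG dinucleotides in the promoter window, in grey for all coding genes with a promoter entry and in red for members. The grey bars climb from 13.1% to 87.7%, and the red bars stand on 3 to 14 genes each.

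Single members went against this order. Ccl28 had 4 CpG and a start peak in all 6 tables, and Cxcr2 and Ccr8 had 2 CpG and a start peak in 5 tables each. Ccl21b had 45 CpG and Cxcl10 had 10, and neither had a start peak in any table. The Cxcl1, Cxcl2 and Cxcl3 windows held 10, 11 and 10 CpG. Cxcl12 and Cxcr4, which form a ligand and receptor pair, each held 20 CpG and had a start peak in 3 and 6 tables. For Ccl25, the thymic and gut ligand of Ccr9, the promoter entry had 52 CpG and its start lay in a peak in 3 tables, but it is not one of the curated mRNA starts counted above, so Ccl25 is among the 32 members without a start in a peak.

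Bins assigned to members lay as far from starts as bins in general: by the authors' distance, 59.0 to 63.5% of member bins per table were more than 10 kb from the nearest start, beside 60.5 to 61.6% of autosomal bins. Of the 1066 bins, 717 (67.3%) lay more than 10 kb from the nearest mRNA start of their gene, and 205 lay more than 100 kb away. Ccl1 had 156 bins, Cxcl12 had 130, Cxcr4 had 124, Ccr4 had 87 and Ccr7 had 59, and these 5 genes held 556 bins (52.2%). None of the 156 Ccl1 bins lay in the coding gene. The nearest was 5.94 kb from its start and the median distance was 90.2 kb. A non-coding GENCODE transcript named for Ccl1 spans 129 kb, from 82176657 to 82305690 on chromosome 11 of GRCm38, and 104 of the bins lay inside it, while 41 lay beyond its far end. The bins counted for Ccl1, the ligand of Ccr8, thus lay in the stretch next to it. For Cxcl12 and Cxcr4 the median distances were 99.4 and 120 kb, and the farthest bins lay 223 and 339 kb away. Distal intergenic bins made up 50 to 54.0% of member bins per table, beside 37.9 to 38.8% of autosomal bins, and bins in promoters (within 3 kb of a start) made up 15.5 to 20.4%, beside 19.7 to 22.9%. With promoters of 1 kb the share over all tables was 11.0% in members and 13.7% in all bins, and with each gene counted once by its nearest bin it was 67.4% and 84.2%.

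**Figure D5:**
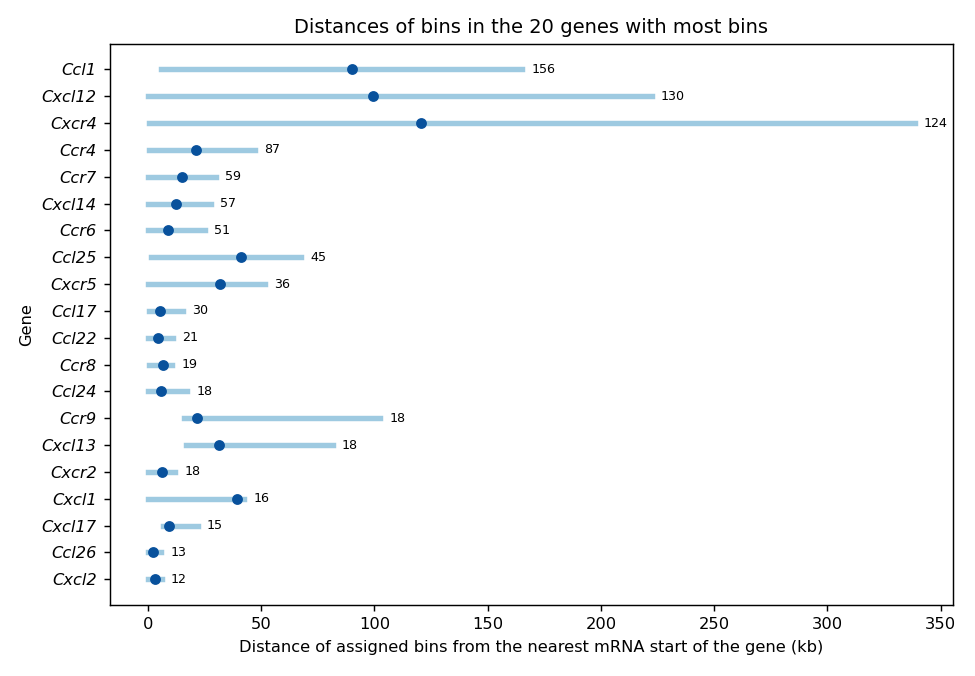
For the 20 genes with the most assigned bins, the bar spans the nearest to the farthest bin from the gene's mRNA starts in kb, the dot is the median and the number is the count of bins over 6 tables. Ccl1, Cxcl12 and Cxcr4 reach to 165, 223 and 339 kb, and bins of Ccl22 stay within 11.2 kb.

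The 10 coding members with no bin in any table were Ccl7, Ccl8, Ccl19, Ccl20, Ccl21a, Ccl21b, Ccl27b, Ccr1l1, Ccr3 and Cxcl9. The share of coding genes without a bin in any table is not given here, so this absence is not read as particular to members. Cxcl9 is an interferon-induced ligand of Cxcr3, and its neighbour Cxcl10 had 3 bins, 1.51 to 3.76 kb from its start and at percentiles of 4.72 to 24.8. Ccl20 is the ligand of Ccr6, which had 51 bins. As the nearest gene of a bin, 32 to 40 of 52 members were listed per table, beside 79.4 to 82.4% of coding genes. Of the 43 genes, 36 had a bin in both sexes, Ccl21d in females only and Ccl2, Ccl3, Ccr1, Cxcl11, Cxcl15 and Cxcr1 in males only. Over all 21394 genes, 2.46% had a bin in females only and 3.97% in males only, beside 2.33% and 14.0% of the 43 members, a difference of few genes that was not tested. The 6 genes seen in males alone had 1 to 5 bins each. Ccl2, the main ligand of Ccr2, had 5 bins, all at least 19.2 kb from its start.

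High listed bins of members were mostly outside their starts. A bin assigned to Ccr4 reached 4.09 log2 CPM in the female age table (percentile 99.9). The authors annotated it to a 3′ UTR, it lies inside the neighbouring gene Trim71, and the listed bins of the peak there stood at percentiles of 2.18 to 87.8 in the remaining tables, which list other bins. A bin of Cxcr4 reached 3.55 in the female 8-week table and was 97.2% soft-masked (repeat sequence in the RefSeq genome), and of its 6 pieces of 75 bases, the read length, some occurred up to 153 times in the autosomes. A bin of Ccr7 reached 3.59 in the male 8-week table, was 100% soft-masked and had pieces that occurred up to 282 times. Repeat content was high in these Cxcr4 and Ccr7 bins, and its part in their levels was not tested. By contrast, the Cxcl5 start bin (3.36 in the female age table) was 9.58% soft-masked and the Cxcl14 bin (3.58 in the male 8-week table) was 0% soft-masked, and all 6 pieces of each occurred 1 time.

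Member bins as a whole were close to the other bins in level. Their median level was 2.58 log2 CPM in the female age table (all autosomal bins 2.64), 2.38 at 3 weeks (2.40) and 2.57 at 8 weeks (2.62), and in males 2.04 (2.10), 1.97 (2.03) and 2.69 (2.74). It was below the median of all bins in each of the 6 tables, and the median percentile per table was 39.8 to 46.5. By role and sex, medians were 53.6 and 45.3 for CXC ligands in females and males, 42.6 and 40.8 for CC ligands, 40.5 and 40.9 for CC receptors and 36.6 and 41.4 for CXC receptors. The listed bins of peaks that hold a member start, whether or not the bin itself holds it, had median percentiles of 49.1 to 60.1 per table, beside 51.6 to 64.8 for those of coding genes. Median GC content was 53.2 to 54.9% in member bins and 53.5 to 55.3% in all bins, against 41.9% in the autosomal sequence. The median soft-masked share was 8.88 to 11.5% in member bins, below the 11.9 to 12.4% of all bins, and the autosomes had 33.5%. Bins with the same coordinates in all 3 tables of a sex numbered 85 in females, over 25 genes, and 81 in males, over 31 genes, and their percentile ranged over the 3 tables by a median of 23.2 points in females and 30.8 in males (at most 84.8 and 77.2).

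Other genes of the pathway were set beside the 64.1% of coding genes with a start in a peak in some table. Of 11 further chemokine genes, 6 had it (54.5%), and the scavenging receptor Ackr3, which takes up Cxcl12, and the membrane-bound ligand Cx3cl1 had it in all 6. Of 16 genes that carry the signal inside the cell (G proteins, arrestins, receptor kinases and others), 15 had it in some table (93.8%) and 7 in all tables, among them Rac2, Dock2 and Elmo1. Of 7 genes that induce chemokines or, as Nfkbia does, restrain NF-kB, 5 had it in some table (71.4%). Irf1, Nfkbia, Tnf and Rela had it in all 6. These lists are short, and they were not tested against the ligands and receptors. Among cell markers, 3 of 8 hepatocyte genes (Apoa2, Hnf4a and Cebpa), 1 of 5 Kupffer cell genes (Clec4f), 3 of 4 T cell genes, 1 of 4 neutrophil genes, 2 of 3 B cell genes and 2 of 4 endothelial genes had the start in a peak in some table. The liver identity of the tissue cannot be checked from a repressive mark, and the part of each cell type in the peaks was not tested. Because hepatocyte genes were among those with a start in a peak, a listed start is not read here as a silent gene. Expression was not examined.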

How the data were processed

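Reads were processed by the authors: alignment to mm10/GRCm38 with BWA, broad peaks called with MACS2, blacklisted regions removed, peaks found in at least 3 replicates kept and merged for each sex, counting in bins of 500 bp, and annotation with ChIPseeker. The deposited level is a log2 CPM that the authors averaged over both groups of a table, without replicate values. The authors' own log2 fold changes, p-values and FDRs are also in the tables and were not used. The planned test on libraries could not be made because the tables hold no value per library. Depth per library is not given in the tables. How the 1 listed bin of a peak was chosen is not stated. Coordinates were matched to RefSeq on GRCm38.p6 (curated mRNA starts, promoters, soft-masking). CpG and motif counts used the promoter windows. Members, gene lists and settings were chosen with earlier results of these data known, and the named genes are those with a bin within 3 kb of the start or in the gene body, the 5 highest bins per sex, and members without a bin, except 1 member that counts in the totals but is not reported here. Start counts were added after the tables were seen. The overlap function was tested on simulated intervals. Python 3.11.15, numpy 2.4.6, pandas 2.3.3 and pysam 0.24.0 were used.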

Additional observations from a re-analysis of the deposited data

How the results depend on the processing

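No paired analysis was possible because the tables hold no value per library, and for the same reason the replicate block, the fits without each replicate and another count normalisation were not run. The share of member bins in promoters was 17.4% (95% binomial interval 15.2 to 19.9%, which counts a bin again in each table that lists it, covers counting error only and is too narrow for that reason), 17.7% (14.7 to 21.1%) when each distinct bin of a sex was counted once (570 in both sexes), 11.0% with a promoter of 1 kb, 19.9% in bins above the table median and 67.4% when each gene was counted once by its nearest bin. The median level percentile of 43.3 moved to 58.7 in bins of at least 5 CPM, by construction. Median GC content moved from 53.9 to 54.3% and the soft-masked share from 9.98 to 8.74% within 10 kb of the gene. The other 21 alternatives stayed within 1.5 times the count or inside that interval. Genes with a bin (43) numbered 31 to 38, and starts in a peak (20 of 52, coding genes 64.1%) numbered 18 with the outermost gene start (coding genes 55.8%), 14 with the start in the listed bin (49.98%), 24 with a peak within 1 kb (74.8%) and 20 without the male 8-week table. Gene bodies with a peak numbered 28 by curated mRNAs and 28 by the whole RefSeq gene. These start and body settings and the count of distinct bins were chosen after seeing the data.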
